A study of Mus musculus with 22 samples.

Results

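Müller glia are the main support cells of the retina. They span its whole depth, recycle the transmitter glutamate, buffer potassium, and in some vertebrates can divide and replace lost neurons. Methylation of cytosine in the dinucleotide CpG is copied at cell division and is commonly low at the starts of active genes and high between genes. In many tissues part of the CpGs drift with age, some upward and some downward. Reduced representation bisulfite sequencing (RRBS) cuts DNA at CCGG with the enzyme MspI, converts unmethylated cytosine with bisulfite, and reads the share of methylated copies at CpGs near the cut sites.

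The positions described here are those at which Müller glia of aged mice stood apart from Müller glia of young mice. A member is an autosomal CpG position, counted on each strand, that was listed in all 12 RRBS libraries. At a member the mean of the 3 aged levels differed by at least 15 percentage points, in the same direction, from the young mean and from the NMDA mean. The 3 aged levels also did not overlap the other 6 Müller levels. Of 743808 autosomal positions, 2034 met the rule. They were 423 gains (0.0569%), higher in aged cells, and 1611 losses (0.217%), lower in aged cells. The members were chosen by the aged, young and NMDA levels, so these are described here and not tested.

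All mice were C57BL/6. Aged Müller cells came from mice of 1.5 years, young ones from mice of 2 to 3 months, and NMDA ones from mice of 2 to 3 months that had received NMDA in the eye 2 days before collection. NMDA activates receptors for glutamate and is toxic to neurons of the inner retina. All Müller cells were sorted by green fluorescence from an Rlbp1-GFP reporter, in which the promoter of a retinoid carrier gene of these cells drives the label. Retinal progenitor cells (RPCs), the dividing cells that build the retina, came from embryos at day 12.5. RRBS was done on 3 libraries per group, and RNA was sequenced from 2 aged, 2 young, 3 NMDA and 3 RPC libraries. The series' text calls the RRBS libraries and the aged and young RNA libraries biological replicates, without saying how many animals each held.

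The 12 RRBS libraries listed 1338829 to 2532174 positions each, all with at least 10 reads. The RNA libraries held 36486072 and 33213893 counts in aged cells, 10149390 and 15202738 in young cells, and 11067405 to 17968517 in the others. Summed RNA of 8 Müller markers was 40695 and 41420 CPM (counts scaled by library size) in aged cells, 52274 and 42537 CPM in young cells, 15325 to 20073 CPM after NMDA, and 1328 to 1427 CPM in RPCs. All 5 rod markers were also detected, summing to 7112 and 4668 CPM in aged cells, 11729 and 8209 CPM in young cells and 5827 to 9457 CPM after NMDA. In bulk samples fewer cells of a type and less RNA per cell cannot be told apart. The labels give no sex. Positions on the Y chromosome numbered 5411, 4074 and 3510 in aged libraries, 2656, 554 and 3858 in young ones, and 258, 405 and 3332 in NMDA ones. The part of sex in the members was not tested.

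The letters around some members are shown because most losses near gene starts stood at the site at which RRBS cuts, CCGG. Of all members, 10 gains and 27 losses fell in the windows from 250 bases before to 50 bases after a RefSeq gene start of build GRCm38.p6. Of these, 3 gains and 18 losses were at CCGG, and the difference between gains and losses was not tested. Sequence was at hand only in these windows, so whether other members were at CCGG could not be read. CCGG reads the same on both strands. It occurs in 53.5% of 31396 such windows, and it held 7.17% of the 100872 positions measured in them. Of the 2310 such positions at 20% to 98% in the young and NMDA libraries, the range in which most members lie, 18.8% were at CCGG. First come the 250 bases before the start of genes whose member was at a CpG outside CCGG, with that CpG in capitals. Fbxo39 carried a gain, and Sox15 and Phactr1 carried losses.
Fbxo39, chr11:72314194-72314443, plus strand: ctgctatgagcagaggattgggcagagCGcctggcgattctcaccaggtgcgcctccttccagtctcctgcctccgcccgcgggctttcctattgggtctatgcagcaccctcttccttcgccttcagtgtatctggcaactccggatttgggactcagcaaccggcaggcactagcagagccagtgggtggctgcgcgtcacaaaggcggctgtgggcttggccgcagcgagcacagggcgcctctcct
Sox15, chr11:69654787-69655036, plus strand: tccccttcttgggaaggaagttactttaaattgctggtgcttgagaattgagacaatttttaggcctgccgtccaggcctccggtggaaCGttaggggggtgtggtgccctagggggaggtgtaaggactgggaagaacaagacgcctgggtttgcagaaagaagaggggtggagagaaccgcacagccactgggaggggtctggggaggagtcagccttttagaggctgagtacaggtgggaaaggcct
Phactr1, chr13:43122589-43122838, plus strand: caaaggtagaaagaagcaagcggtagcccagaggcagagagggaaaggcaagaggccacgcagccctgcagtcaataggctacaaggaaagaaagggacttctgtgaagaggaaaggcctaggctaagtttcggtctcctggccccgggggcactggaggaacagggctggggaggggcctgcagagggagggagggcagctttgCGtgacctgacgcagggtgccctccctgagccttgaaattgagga

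Next come 25-base stretches around members at CCGG, with the site in capitals. Mpg carried a gain, and the other 5 are the protein-coding genes whose CCGG position was at 0 in all 3 aged libraries.
Mpg, chr11:32226278-32226302, plus strand: gaaaattcagtCCGGgttcagagag
Emc1, chr4:139352461-139352485, plus strand: ctgcccaggtcCCGGgtccctccag
Espn, chr4:152152479-152152503, minus strand: cttgctggccgCCGGggatagggga
Gng12, chr6:66896366-66896390, plus strand: agccccgcccaCCGGgccgtgcgcc
Rfc1, chr5:65335732-65335756, minus strand: gtagcaaccctCCGGttgctagggc
Tmem8b, chr4:43668924-43668948, plus strand: tctcgtcatctCCGGgcgtgggtga

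At gains the median aged level was 76.8%, against medians of 43.6% in young and 52.0% in NMDA cells. The level averaged over the 423 gains was 71.7%, 68.5% and 71.9% in the aged libraries. It was 35.0%, 48.6% and 45.9% in the young libraries and 45.0%, 50.4% and 48.7% in the NMDA libraries. Young library 1 was the lowest of the 6. The median difference was 24.7 points from young and 21.3 points from NMDA cells, and the largest were 63.3 and 51.1 points. Most gains were partially methylated in the other Müller libraries. The mean of the 6 young and NMDA libraries lay between 20% and 80% at 337 gains, under 20% at 74 and over 80% at 12. The aged mean was over 95% at 61 gains.

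At losses the median aged level was 15.8%, against medians of 40.4% in young and 47.4% in NMDA cells. The level averaged over the 1611 losses was 27.5%, 31.4% and 25.5% in the aged libraries. It was 52.4%, 50.4% and 48.5% in the young libraries and 54.8%, 49.5% and 54.7% in the NMDA libraries. The median difference was -20.5 points from young and -22.5 points from NMDA cells. The 6 young and NMDA libraries averaged between 20% and 80% at 1112 losses, over 80% at 402 and under 20% at 97. The aged mean was under 5% at 465 losses, and at 89 of these all 3 aged libraries had no methylated read. At those 89 the pooled aged reads numbered 36 at the fewest and 97 at the median. Counting error alone then allows a level of up to 8.33% and 3.09%.

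**Figure D1:**
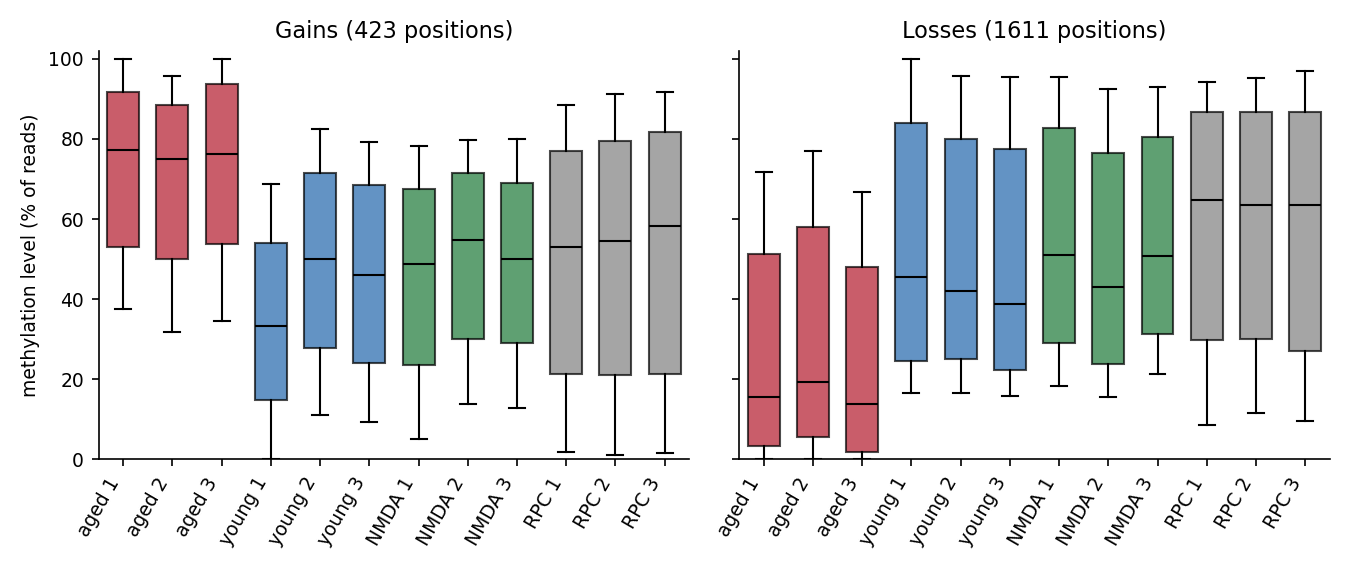
Methylation level, in percent of reads, at the 423 gains (left) and 1611 losses (right) in each of the 12 libraries. Boxes span the quartiles with the median, and whiskers run from the 10th to the 90th percentile. Median aged levels lie between 75% and 77.3% at gains and between 13.8% and 19.4% at losses, while RPC medians lie between 52.9% and 58.3% at gains and between 63.4% and 64.7% at losses, above every young and NMDA library at losses.

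The aged libraries varied among themselves at single members. The median SD of the 3 aged levels was 6.38 points at gains and 5.45 points at losses, with a median counting error of 5.40 and 4.14 points per level. The least covered of the 12 libraries had a median of 17 reads at gains and 18 at losses, against 20 at positions at 20% to 98% in the young and NMDA libraries and 28 over all positions. With all else in the rule met, the smaller of the 2 differences was 15 to 16 points at 57 gains and 14 to 15 points at 63 further positions. The corresponding numbers were 298 losses and 390 further positions. The 3 gains nearest the threshold had smaller differences of 15.003, 15.007 and 15.01 points, and the 3 nearest positions outside it had 14.97, 14.96 and 14.94 points. For losses these were -15.007, -15.007 and -15.01 points inside, and -14.993, -14.993 and -14.99 points outside.

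Without any minimum size, the 3 aged levels lay above all 6 others at 1971 positions (0.265%) and below them at 14491 positions (1.95%). Low levels were lower in aged libraries over the whole data. The median level over all positions was 0.65% in aged, 4.15% in young, 1.39% in NMDA and 1.67% in RPC cells. In the gene start windows, positions at CCGG averaged 5.53% in aged, 16.6% in young, 8.12% in NMDA and 10.8% in RPC cells. Other CpGs there averaged 1.58%, 3.59%, 1.92% and 2.18%. Losses made up 0.249% of the 7228 CCGG positions and 0.00961% of the 93644 others. Among positions at 20% to 98% in the young and NMDA libraries they made up 2.76% of 435 at CCGG and 0.427% of 1875 others. The 18 losses at CCGG all had aged means of at most 7.16% and means of 18.3% to 30.5% in the 6 young and NMDA libraries. Whether the bases filled in at the cut ends were trimmed alike in all libraries is not given in the sources used here. Its part in CCGG levels, and the part of the general difference at CCGG in the losses, were not tested.

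Gains and losses both lay away from gene starts more often than all positions measured. They lay near starts more often than positions at 20% to 98% in the young and NMDA libraries. Of 408 gains outside chromosome 18, 15.9% were within 1 kb of a gene start, as were 10.1% of 1564 losses and 47.0% of all measured positions. Positions at 20% to 98% in the young and NMDA libraries were within 1 kb of a start in 6.74%. The list of starts lacked some genes on other chromosomes too, such as Foxh1 and Clu, so these shares refer to listed starts. The median number of measured CpGs within 250 bp was 7 at gains and 6 at losses, against 6 at positions at 20% to 98% and 16 over all positions. Protein-coding gene spans held 61.9% of gains, 58.6% of losses and 69.4% of all positions. The annotation gave gene spans without exons, so exonic, intronic and untranslated positions were not separated.

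Gains were unevenly spread over chromosomes. Chromosome 12 held 49 of the 423 (11.6%) with 4.22% of the positions. A stretch between 17 and 25 Mb, delimited after these values were seen, held 33 gains among 3762 positions, or 0.877%. The rest of chromosome 12 held 0.0579% and the other autosomes 0.0222% to 0.0773%. The level averaged over the 33 gains was 62.1%, 58.5% and 62.2% in aged libraries. It was 22.9%, 37.3% and 34.2% in young, 33.3%, 37.0% and 37.9% in NMDA, and 38.0%, 34.5% and 44.9% in RPC libraries. Losses made up 0.186% of the positions in this stretch and 0.217% of all positions. Its annotated genes next to members are predicted loci such as Gm9257, Gm40862 and LOC108167983. Reads from near-identical copies may not be placed with certainty there.

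Members mostly stood alone. Joined where they lay at most 500 bp apart, the gains formed 355 runs, of which 325 held 1 CpG and 11 held at least 3. The losses formed 1526 runs, of which 1457 held 1 CpG and 12 held at least 3. The CpG nearest a gain on the same strand, where one was measured within 50 bp (354 gains), differed by a median of 6.97 points between aged and the other Müller libraries. It was higher at 262 of them (74.0%), of which 22 were members and so higher by the rule. The CpG nearest a loss (1151 losses) differed by a median of -6.30 points and was lower at 922 (80.1%), of which 24 were members. Aged levels were lower than the mean of the 6 at 75.2% and higher at 19.9% of all positions, and lower at 53.2% and higher at 46.8% of positions at 20% to 98%. The opposite strand of the same CpG was measured at 143 gains and 341 losses. There it differed by medians of 4.23 and -4.52 points, where the members themselves differed by 23.3 and -22.8 points. It was higher at 92 of the 143 gains (64.3%) and lower at 230 of the 341 losses (67.4%), and met the rule itself at 4 and 4. The 67.4% lies under the 75.2% of all positions and above the 53.2% of positions at 20% to 98%. With the reads of both strands pooled, 195486 CpGs could be judged. Of 141 CpGs with a gain on at least 1 strand 11 remained gains, and of 339 with a loss 42 remained losses.

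**Figure D2:**
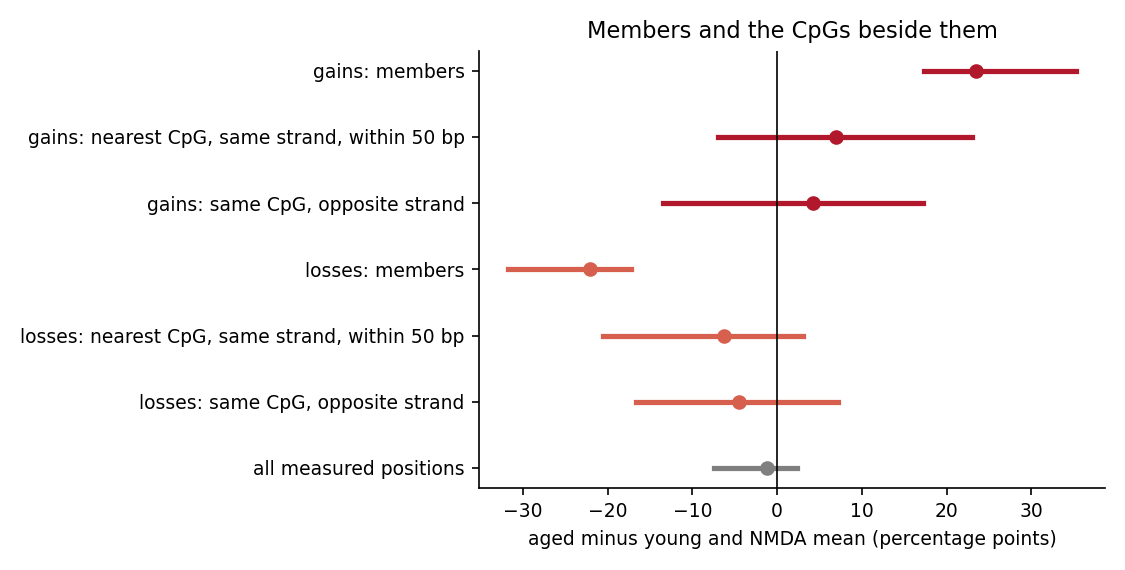
Aged mean minus the mean of the 6 young and NMDA libraries, in percentage points, for members, for the nearest CpG on the same strand within 50 bp, for the opposite strand of the same CpG, and for all measured positions. Dots mark medians and bars run from the 10th to the 90th percentile. Medians at neighbours and opposite strands were 4.23 to 6.97 points in size, in the direction of the members and smaller than theirs.

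The longest runs of gains included 2 close downstream of gene starts that were nearly unmethylated in the other groups. In Purb, which encodes a single-stranded DNA and RNA binding repressor of transcription, 8 CpGs at chr11:6475838-6475918 formed a run centred 198 bp downstream of the start. Their mean level was 27.4%, 20.97% and 15.7% in aged libraries, 2.16%, 2.86% and 1.61% in young, 0%, 6.88% and 8.91% in NMDA, and 0% in all 3 RPC libraries. At 16 of the 19 positions measured in the run's span the aged levels were above all other Müller levels. These include the 8 members, for which the rule requires it. The share over all positions, which need not lie between members, was 0.265%. The lowest coverage at its members was 10 reads.

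In Cmya5, a gene of muscle cells, 7 CpGs at chr13:93144346-93144495 formed a run centred 304 bp downstream of the start. Their mean level was 44.8%, 30.4% and 37.1% in aged libraries, 0%, 6.77% and 5.58% in young, 1.90%, 12.1% and 12.5% in NMDA, and 0.397%, 0% and 0% in RPC libraries. The lowest aged library was well above the highest of the others. Cmya5 also held 2 of the 6 largest single gains, with 49.6% ± 9.1 and 49.2% ± 12.5 in aged cells and 1.13% ± 1.96 and 3.00% ± 2.81 in young cells (SD, n = 3).

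The gain run with most CpGs, 9 at chr12:80758154-80758271, lay in the span of Ccdc177, a coiled-coil gene. Its mean level was 75.4%, 77.0% and 71.8% in aged libraries and 36.0% to 53.8% in the young and NMDA ones, with 33.5%, 42.6% and 47.0% in RPCs. Its 115 measured positions in the 600 bp to each side had means of 70.4% ± 3.5 in aged, 62.2% ± 5.5 in young and 66.5% ± 5.7 in NMDA cells (SD, n = 3), and at none of them did the aged levels stand above all others. In Dact3, whose protein binds Dishevelled in the Wnt pathway, 5 CpGs at chr7:16885662-16885891 averaged 73.1% ± 4.8 in aged, 32.4% ± 16.2 in young, 49.0% ± 8.0 in NMDA and 20.1% ± 3.8 in RPC cells (SD, n = 3 each). In Pik3c3, the class III phosphoinositide 3-kinase of autophagy, 5 CpGs at chr18:30267096-30267256 averaged 91.5% ± 8.0 in aged, 51.2% ± 10.8 in young and 67.5% ± 9.2 in NMDA cells. RPCs resembled aged cells there, at 87.4% ± 1.8.

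The largest single gain, at chr4:134430729 on the minus strand, lay in no gene span and 27759 bp downstream of the start of Pafah2. Its level was 77.5%, 86.7% and 70.0% in aged libraries, 9.09%, 36.0% and 22.7% in young, and 28.1%, 28.6% and 29.2% in NMDA. RPCs, at 76.0%, 70.7% and 67.7%, were close to aged cells. A gain at chr11:117091983, 15200 bp downstream of the start of the noncoding RNA gene Snhg20, was instead at 46.7%, 55.6% and 34.5% in aged libraries and at 0% in all 3 RPC libraries.

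Runs of losses were shorter and held at most 4 CpGs. In Sgk1, which encodes a kinase induced by serum and glucocorticoids, 3 CpGs at chr10:21997235-21997382 lay 2642 bp downstream of the start. They averaged 35.4%, 56.1% and 30.5% in aged libraries, 63.4%, 96.8% and 75.7% in young, 93.1%, 61.4% and 68.7% in NMDA, and 95.9%, 99.1% and 92.1% in RPC libraries. Aged library 2, at 56.1%, came closest to the others. At chr5:140331120-140331191, in the overlapping spans of Nudt1, which clears oxidised nucleotides, and Mrm2, a methyltransferase of mitochondrial ribosomal RNA, 4 CpGs averaged 34.7%, 37.5% and 42.7% in aged libraries. The same CpGs averaged 58.6% to 79.97% in the young and NMDA libraries and 51.4% to 71.8% in RPCs.

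A loss run at chr8:120068284-120068383, in no gene span, was lowest in aged and highest in RPC cells. Its 3 CpGs averaged 6.01%, 9.87% and 1.61% in aged libraries, 55.6%, 15.5% and 22.4% in young, 60.3%, 46.7% and 61.4% in NMDA, and 72.8%, 87.2% and 80.6% in RPC libraries. Young and NMDA libraries overlapped there. A single loss in Mtmr11, of the myotubularin phosphatase family, at chr3:96162895 and 925 bp downstream of the start had tight young and NMDA groups. It was at 0%, 22.6% and 4.17% in aged libraries, 55.6%, 54.5% and 57.9% in young, 67.4%, 60% and 64.7% in NMDA, and 85.3%, 78.8% and 76.5% in RPC libraries. In Tnrc18, a position at chr5:142771780 was nearly fully methylated in the others, at 88.9% to 100% in young and NMDA libraries, and at 36.4%, 63.0% and 53.8% in aged ones.

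Some of the largest losses rested unevenly on the aged libraries. In the run at chr1:14696889-14697073, which lies in no gene span, aged library 1 was at 12.8% and aged libraries 2 and 3 at 48.7% and 49.8%, against 73.3% to 86.0% in the young and NMDA libraries. At the loss at chr1:193067802 the aged levels were 12.5%, 63.3% and 18.8%, and NMDA library 3 had 63.6%.

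**Figure D3:**
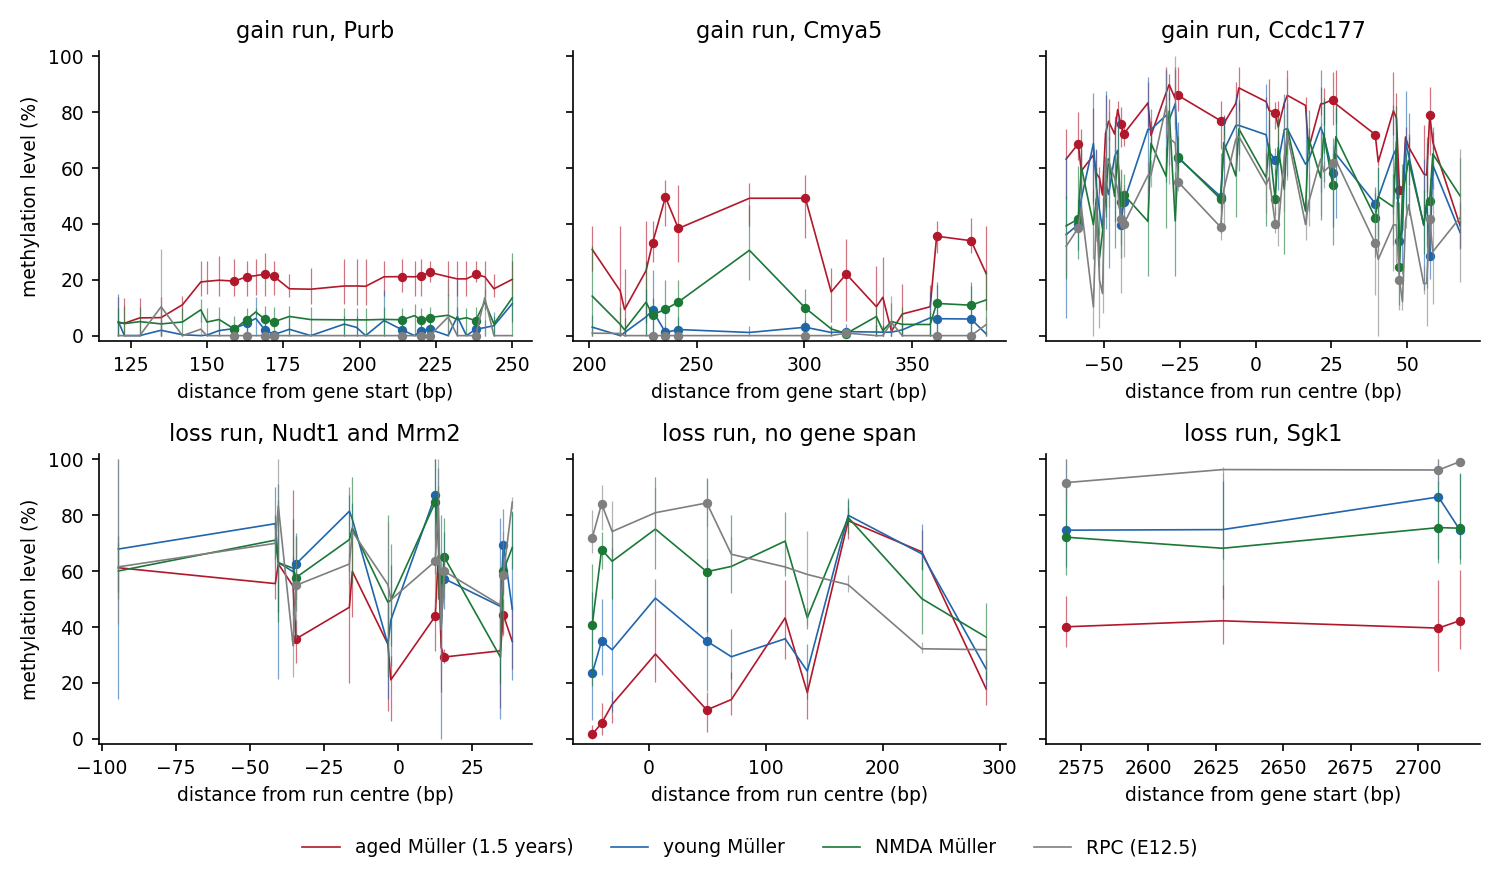
Methylation level, in percent of reads, at every position measured near 6 runs, by distance from the gene start or from the run's centre in bp. Lines join group means (n = 3), thin vertical bars give the range of the 3 libraries, and dots mark members. Within the run of Purb the aged line lies above the other 3. There 16 of 19 positions had no overlap with the other Müller levels, among them the 8 members chosen for this. In Sgk1 the aged line lies below all others at 4 measured positions, of which 3 are members.

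Among members in the gene start windows, the gain of Fbxo39, an F-box gene, was at 30.8%, 34.1% and 44.7% in aged libraries, 5.13%, 12.9% and 9.68% in young, 16.7%, 27.9% and 19.4% in NMDA, and 13.9%, 14.4% and 28.8% in RPC libraries. It lay 223 bases before the start printed above. The loss of Sox15, a SOX family transcription factor, 161 bases before its start, was at 20.3%, 16.9% and 26.2% in aged libraries. It was at 65.4%, 42.9% and 27.3% in young and at 45.5%, 33.3% and 47.4% in NMDA libraries, so that the highest aged and the lowest young library nearly met. The loss of Phactr1, a regulator of actin and phosphatase 1, was at 10.99%, 15.8% and 0% in aged libraries, 64.7%, 32.8% and 27.6% in young, and 70.3%, 20.5% and 30.8% in NMDA. The CCGG losses of Rfc1, the large subunit of replication factor C, and of Gng12, a G protein gamma subunit, were at 0% in all 3 aged libraries. Rfc1 was at 27.0%, 18.4% and 9.27% in young libraries, and Gng12 at 7.76%, 35.6% and 18.8%. A gain before Rbm24 rested on aged library 1 with 40%, while aged libraries 2 and 3 had 3.08% and 2.38% against 0% in all 6 young and NMDA libraries.

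RPC levels did not enter the rule. At gains the RPC mean had a median of 55.8%, and it was nearer to the aged mean than to the mean of the 6 young and NMDA libraries at 139 of 423 (32.9%). At losses the median was 64.4%, and it was nearer to the aged mean at 371 of 1611 (23.0%). The RPC mean lay within the range of the 6 at 233 gains and 752 losses. It reached or passed the nearest aged level at 83 gains and 228 losses, and lay beyond the 6 on the side away from aged cells at 55 gains and 449 losses. At 226 gains and 1117 losses all 3 RPC levels were apart from all 3 aged levels, on the side of the young and NMDA cells or beyond. The shifts therefore separate aged from the other Müller cells at every member by construction, but not from RPCs at every member. These are descriptions, since each distance uses the Müller levels that chose the members.

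**Figure D4:**
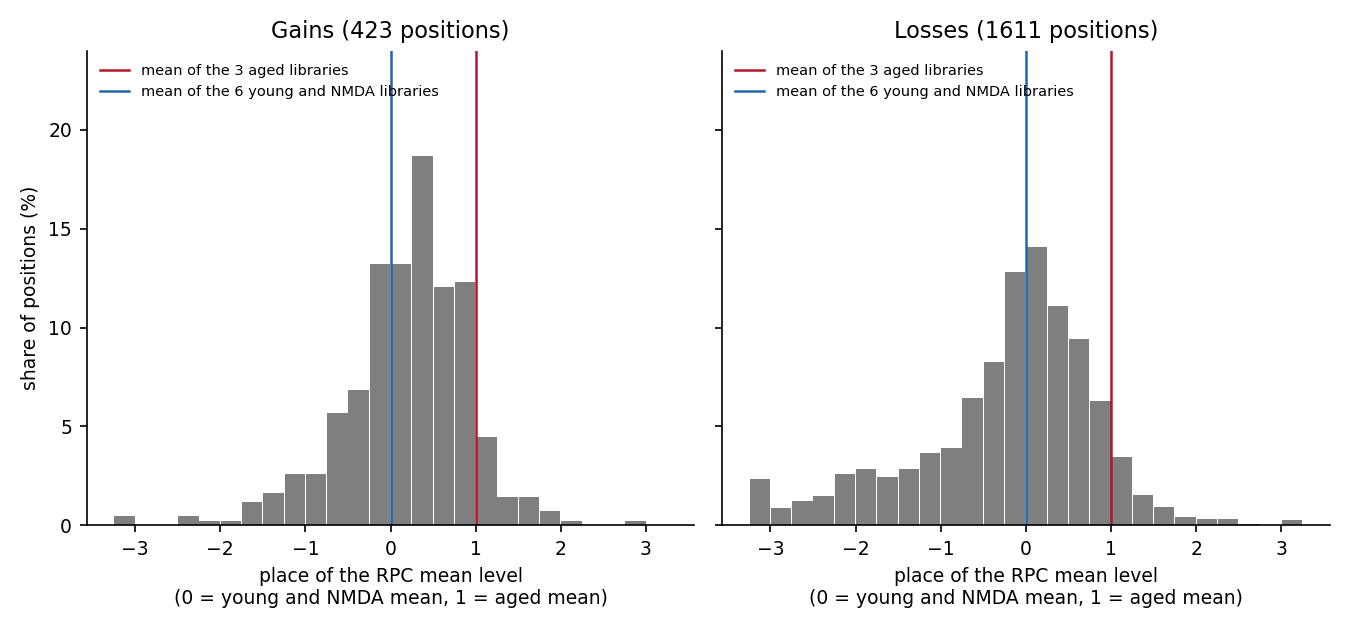
Place of the RPC mean level at each gain (left) and loss (right) on a scale where 0 is the mean of the 6 young and NMDA libraries and 1 the mean of the 3 aged libraries, as the share of positions per bin in percent (the outermost bins hold all values beyond 3). RPCs were nearer to aged cells at 32.9% of gains and 23.0% of losses, and the losses have a long tail on the side away from aged cells.

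A gene was linked to a member that lay in its annotated span or within 1 kb of it. Of 21001 genes with a measured position, 293 (1.395%) were linked to a gain, 1168 (5.56%) to a loss and 60 to both. Of 17 Müller glia genes 4 (23.5%) were linked to a loss and 0 to a gain. In Glul, the glutamine synthetase of these cells, both strands of 1 CpG 4709 bp downstream of the start were losses. The plus strand was at 21.2%, 50% and 46.1% in aged libraries, 52.0%, 71.4% and 76.5% in young, 80%, 83.3% and 100% in NMDA, and 94.7%, 98.4% and 93.9% in RPC libraries. In Kcnj10, the potassium channel by which Müller glia buffer potassium, a CpG 351 bp downstream of the start was at 0%, 6.25% and 3.48% in aged libraries. It was at 13.6%, 22.0% and 21.3% in young, 19.4%, 18.6% and 34.9% in NMDA, and 46.2%, 36.4% and 52.2% in RPC libraries. Losses were also linked to Clu, which encodes the chaperone clusterin (62.5% ± 10.8 in aged libraries, SD, n = 3), and to Nfix, a nuclear factor I gene of glia (3.61% ± 1.62).

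Of 13 genes of gliosis and injury 1 was linked to a loss, Sbno2, with 8.43% ± 4.95 in aged libraries and 35.4% in the 6 young and NMDA libraries. Of 21 retinal progenitor genes 2 were, Lhx2, an eye field factor, with 1.48% ± 2.56 in aged libraries, and Hmga2, a chromatin protein of progenitors, with 3.79% ± 2.90. None of 16 genes of DNA methylation was linked to a member. Of 28 imprinted genes 1, Inpp5f, was linked to a loss, as were Hoxa3 and Hoxa10 of 38 Hox genes. None of these 5 lists held a gain. Their shares with a loss were, in this order, 7.69%, 9.52%, 0%, 3.57% and 5.26%, beside 5.56% of all genes.

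Of 144 developmental transcription factors, 6 (4.17%) were linked to gains and 10 (6.94%) to losses, beside 1.395% and 5.56% of all genes. At 5 of the 6 gains the RPC mean was 12.5% or lower. Over all 423 gains its 10th percentile was 3.35% and its 25th was 23.4%, and the difference was not tested. Nkx2-9, a homeobox gene, was at 46.8%, 42.3% and 42.0% in aged libraries, 27.0%, 25% and 30.5% in young, 20%, 23.2% and 9.09% in NMDA, and 0%, 1.39% and 1.69% in RPC libraries. Pax8, a paired box gene, was at 37.9%, 15.1% and 17.4% in aged libraries, 0% to 8.06% in the young and NMDA libraries, and 0%, 0.70% and 0% in RPC libraries. Tbx1, a T-box gene, was at 23.96% ± 6.3 in aged libraries and 4.003% in RPCs. Irx6 was at 70.0% ± 6.2 and 7.19%, and Foxh1 at 65.8% ± 6.2 and 12.5% (SD, n = 3). Gata4, a zinc finger factor, was the exception among these 6, with 71.6% ± 9.9 in aged libraries and 50.2% in RPCs. The losses were linked to Foxj1, Foxn3, Foxp1, Lhx2, Pax5, Pax7, Sox13, Sox15, Sox5 and Sox6.

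Of 66 axon guidance genes 9 (13.6%) were linked to losses and 0 to gains, beside 5.56% and 1.395% of all genes. The losses included Slit1, a secreted repellent, with 14.6%, 31.4% and 0% in aged libraries and 41.4% to 87.2% in the young and NMDA ones. They also included Efna2, an ephrin ligand, with 38.2%, 29.5% and 18.8% in aged libraries and 47.6% to 73.7% in the others. Ephb2, an ephrin receptor, carried 2 losses. Of 42 collagens 5 (11.9%) were linked to losses and 1 (2.38%) to a gain. The same numbers were 5 (13.5%) and 1 (2.70%) of 37 Wnt pathway genes. For 294 zinc finger proteins they were 17 (5.78%) and 6 (2.04%), the losses near the share of all genes. In the Wnt list the gain was near Fzd2, a Wnt receptor, at 24.4%, 28.6% and 36.4% in aged libraries, 0% to 16.7% in the young and NMDA libraries, and 0% in all 3 RPC libraries. Of 43 clustered protocadherins 20 were linked to gains and 24 to losses, but their spans overlap. The positions behind them were 5 gains and 7 losses, of which 3 and 4 lay in the alpha cluster. List members with more measured positions had more chances of a member. The median was 297 positions for the protocadherins, 119 for retinal progenitor genes, and 91 for developmental transcription factors and for Wnt pathway genes. It was 47 for Müller glia genes, 43.5 for axon guidance genes, 30.5 for collagens and 26 over all genes.

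RNA of linked genes did not enter the rule and was tested. Over all 18931 genes tested, 27.0% passed an adjusted p of 0.05 in edgeR's quasi-likelihood test in aged against young cells, 21.1% higher and 5.85% lower, and 20.3% in aged against NMDA cells, 9.80% higher and 10.5% lower. Against young cells, 3560 of 13225 tested genes with a measured position (26.9%) passed, 2740 higher (20.7%) and 820 lower (6.20%). Of 212 genes linked to gains 44 rose and 8 fell, or 24.5%. Of 808 genes linked to losses 224 rose and 37 fell, or 32.3%. In aged against NMDA cells 22.3% of genes with a measured position passed, 11.3% higher and 11.0% lower. There 32 gain-linked genes rose and 17 fell (23.1%), and 154 loss-linked genes rose and 64 fell (27.0%). Both comparisons use the same aged libraries. Some markers of other cells moved with the NMDA comparison. Summed RNA of 8 microglia and macrophage markers, all above 0 in all 5 libraries, was 72.7 and 85.8 CPM in aged cells and 292, 3529 and 702 CPM in NMDA cells. Of the 8, Cx3cr1 and P2ry12 were instead lower in NMDA libraries 1 and 3 than in aged cells. Among 3 astrocyte markers Gfap, which Müller glia also express after injury, was higher after NMDA. It had 44.9 and 69.6 CPM in aged cells and 860, 1169 and 907 CPM in NMDA cells. S100b went the other way, with 14.9 and 16.9 CPM in aged and 3.25 to 4.79 CPM in NMDA cells. Pax2 had 0.33 and 2.29 CPM in aged and 0.69 to 1.46 CPM in NMDA cells. The part of these markers in the RNA calls was not tested. Fitted on the aged and young libraries alone, 2.47% of 12123 measured genes passed, among them 8 of 194 gain-linked and 41 of 746 loss-linked genes.

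How a gene lies in the annotation moved with these counts. Against young cells, 39.99% of measured genes whose span contains another gene rose and 3.41% fell, against 13.7% and 7.22% of the other measured genes. Of the loss-linked genes 407 of 808 contained another gene, as did 93 of the 212 gain-linked genes and 3546 of the 13225 measured genes. Among genes that contain no other, 13.97% of 401 loss-linked and 9.24% of 119 gain-linked genes rose, and 7.23% and 5.88% fell. The shares of loss-linked and of all measured genes that rose were thus alike there. Against NMDA cells the same genes rose in 18.2% of loss-linked, 12.6% of gain-linked and 10.6% of measured genes. How reads shared by 2 genes were counted is not given in the sources used here, and its part was not tested.

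**Figure D5:**
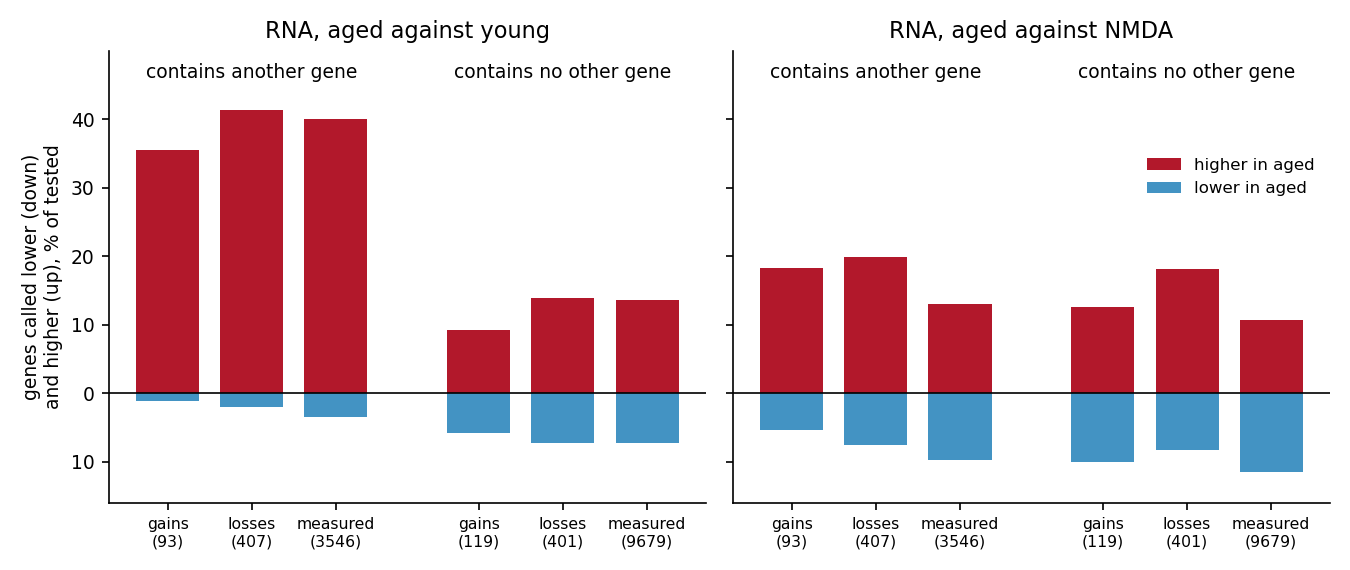
Share of tested genes called higher (up) or lower (down) in aged cells against young (left) and NMDA cells (right), for genes linked to gains, linked to losses and with a measured position, split by whether the gene's span contains another gene (number of genes in brackets). Against young cells the loss-linked genes without another gene rose in 13.97%, beside 13.7% of all such measured genes.

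Among genes that contain no other, Purb rose in aged cells, where its run near the start was a gain. It had 391 and 389 CPM in aged cells, 177 and 207 CPM in young, and 17.2, 12.2 and 17.1 CPM in NMDA cells. The log2 change was 1.02 ± 0.17 (SE) against young (adjusted p = 0.0033) and 4.65 ± 0.17 against NMDA (adjusted p = 9.12e-06, edgeR). Dact3 fell against young, with 20.2 and 23.6 CPM in aged and 40.2 and 34.4 CPM in young cells (log2 -0.77 ± 0.23, adjusted p = 0.041, and up to 0.206 with 1 library left out). Ccdc177 and Pik3c3 did not pass against young, with log2 0.03 ± 0.25 and -0.22 ± 0.17. Mpg, a DNA glycosylase of base excision repair with a gain before its start, had 7.24 and 11.5 CPM in aged and 28.0 and 17.8 CPM in young cells. Its log2 change was -1.29 ± 0.35 (adjusted p = 0.025, and up to 0.151 with 1 library left out). Other gain-linked genes that fell were Itpkc, an inositol phosphate kinase (-0.98 ± 0.19), and Cbx2, a Polycomb protein (-0.81 ± 0.22, adjusted p up to 0.118 with 1 library left out).

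Loss-linked genes that contain no other moved in both directions. Rfc1 rose, with 65.9 and 71.4 CPM in aged and 25.6 and 27.3 CPM in young cells (log2 1.38 ± 0.10, adjusted p = 3.56e-05). Mtmr11 rose against young, with 12.1 and 10.4 CPM in aged and 3.52 and 5.25 CPM in young cells (1.37 ± 0.28, adjusted p = 0.0074), but fell against NMDA, where it had 35.6 to 44.4 CPM (-1.84 ± 0.26, adjusted p = 0.0021). Sox13, a SOX factor, fell against young (-0.90 ± 0.16, adjusted p = 0.0044) and rose against NMDA (0.83 ± 0.15, adjusted p = 0.0054). Vars2, the mitochondrial valine tRNA synthetase, fell against young (-0.92 ± 0.15), as did the histone H3 methyltransferase Dot1l (-0.62 ± 0.12) and the cytoskeletal gene Obsl1 (-1.19 ± 0.24, adjusted p up to 0.0625 with 1 library left out). Manbal, with a CCGG loss, also fell (-0.80 ± 0.20, adjusted p = 0.019, up to 0.107 with 1 library left out). Glul and Kcnj10 did not pass against young, with log2 -0.04 ± 0.28 and 0.32 ± 0.19. Glul was higher in aged than in NMDA cells (2.81 ± 0.26, adjusted p = 0.000295).

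The linked genes with the smallest adjusted p against young, Rere, Tulp4, Ece1, Dst and Arhgap26 at losses and Rere, Pde4dip, Msi2, Xpot and Pcca at gains, all contain another gene. Rere, a corepressor, had 236 and 263 CPM in aged and 8.28 and 9.35 CPM in young cells, but 209 to 251 CPM after NMDA. Sgk1 had 84.1 and 65.9 CPM in aged cells and no count in either young library, which makes it at least 570-fold higher, and 120 to 280 CPM after NMDA. Cmya5 had 1.96 and 3.02 CPM in aged cells and no count in young ones (at least 18.7-fold higher). Both bounds set the young group at 3 counts over its pooled libraries and cover counting error only. Sgk1, Cmya5, Lhx2 and Gng12 also contain another gene, and 18.2% of the 3546 measured genes of that kind had no count in either young library, against 12.8% of the 9679 others. Since the counting of shared reads is not known, these bounds and levels are uncertain. Lhx2 and Gng12, at 295 and 321 CPM and at 58.4 and 58.9 CPM in aged cells, were at 3.59 and 2.86 CPM and at 4.17 and 10.2 CPM in young cells. Lhx2 had 118 to 184 CPM after NMDA but only 0.71 to 1.48 CPM in RPCs, although it is listed as a progenitor gene. Rere was low in RPCs too, at 13.9 to 16.2 CPM. So were Dst (22.0 to 24.1 CPM), Arhgap26 (0.62 to 1.10), Pde4dip (0.31 to 1.08), Pcca (0 to 0.16) and Sgk1 (0.08 to 0.23). After NMDA, Dst had 688 to 940, Arhgap26 98.8 to 115, Pde4dip 169 to 200 and Pcca 34.7 to 36.1 CPM. Ece1 and Tulp4 had the same pattern. Msi2 and Xpot were not low in RPCs, at 503 to 547 and 58.7 to 70.7 CPM. At the genes low in RPCs, NMDA cells thus shared the rise over young cells. The reason was not tested. Against NMDA, Gng12, Rere, Dst and Pcca did not pass. Dnah1, an axonemal dynein linked to a gain, fell (-2.66 ± 0.44) although its span contains another gene. Rn18s-rs5, a ribosomal RNA sequence present in many copies, was linked to a gain and a loss, and its values are uncertain.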

How the data were processed

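For RRBS the authors deposited, per the file headers, a methylated percent and a coverage (a read count) for single CpG positions, both strands apart, from 10 reads upward. For RNA the deposited values are read counts of 44792 gene symbols. The counting tool and its strand setting are not given in the sources used here. Tools named in the submitters' processing notes are methylKit 1.4.0, Bismark 0.16.3, Trim Galore 0.4.3 and HISAT2 2.0.4, with the builds GRCm38 and mm10, without saying which step used which.

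Levels were taken as deposited (Python 3.11.15, numpy 2.4.6, pandas 2.3.3, matplotlib 3.10.9) and the rule in the report was applied to 743808 autosomal positions present in all 12 libraries. Sex chromosomes were left out. Gene spans and starts came from RefSeq, GRCm38.p6. The list of starts held none for chromosome 18 and lacked some genes elsewhere, such as Foxh1 and Clu. Start windows, distances and shares near starts therefore refer to listed starts only. RNA was fitted over all 10 libraries with edgeR 4.0.16 in R 4.3.3 (quasi-likelihood, TMM scaling, the package's expression filter, 18931 genes) with Benjamini-Hochberg adjustment over all of them. Its median log2 change of aged over young was 0.13. The rule and the fit were tested on simulated data.

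The members, the gene lists and the tests were chosen with earlier results of these data known. Runs named are the 8 per direction with most CpGs, and single positions the 6 per direction with the largest smaller difference, of which those most telling are given. RNA genes named are up to 5 higher and 5 lower per direction by adjusted p, plus genes of named runs, start windows and lists. The alternatives were other size and coverage minimums, pooled strands, left-out libraries, RLE and upper-quartile scaling, no filter, other groups in the fit, the replicate block and DESeq2 1.42.0. A count of the main fit's calls without genes that contain another gene was added after seeing the data. Intervals, floors and bounds cover counting error only.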

Additional observations from a re-analysis of the deposited data

How the results depend on the processing

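The numbers of members followed the thresholds. Gains numbered 873 and losses 4349 at 10 points, 203 and 596 at 20 points, and 80 and 242 at 25 points. With at least 20 reads in every library 167 gains and 743 losses remained, and with at least 30 reads 68 and 386. With strands pooled 24 of 195486 CpGs were gains and 69 losses, of which 11 and 42 held a member. Leaving out 1 library gave 505 to 1320 gains and 1831 to 4981 losses, since fewer levels had to be apart. The median RPC level was 51.9% at gains and 56.3% at losses with at least 20 reads, and 60.4% at gains with 1 value per run. With 1 library left out it was 53.1% to 56.9% at gains and 64.2% to 65.025% at losses. RNA calls depended on the fit. In the 2 groups alone, 8 gain-linked and 41 loss-linked genes passed against young and 74 and 342 against NMDA, with 2.47% and 38.4% of measured genes. In the 3 Müller groups alone, 26 and 131 passed against NMDA, with 12.4% of measured genes. Without genes that contain another gene, an alternative chosen after seeing the data, 18 of 119 and 85 of 401 passed against young, beside 20.9% of measured genes. Against NMDA 27 and 106 of these passed, beside 22.1% of measured genes. With members within 1 kb of a gene start only, 4 and 30 passed against young and 6 and 33 against NMDA, from fewer genes. Leaving out 1 library gave 38 to 109 gain-linked and 184 to 458 loss-linked genes against young, and 15 to 38 and 73 to 179 against NMDA. Without young library 2, 109 and 458 passed against young (52.6% of measured genes), and without young library 1, 90 gain-linked genes. Without aged library 1, 19 and 94 passed against NMDA, and without aged library 2, 15 and 73 (7.20% of measured genes). The cause was not tested. Upper-quartile scaling moved the median log2 change over all genes from 0.13 to 0 against young. Same-numbered RNA libraries did not deviate together (r = 0.005 for aged 1 and young 1), which gave no sign of pairing by number. With 2 aged and 2 young libraries this check cannot exclude a pairing. With the replicate block 29 gain-linked genes passed against NMDA, with 13.7% of measured genes, and the other 3 counts stayed within 1.5 times. Depth limits single positions, with a median of 17 reads at gains in the least covered library.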
